A study of Mus musculus with 8 samples.

Results

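The genes of lymph node homing and tissue egress were followed across P14 CD8+ T cells kept in culture under 4 stimulation schedules. They were listed as 7 genes: the sphingosine-1-phosphate (S1P) receptors *S1pr1*, *S1pr4* and *S1pr5*, the chemokine receptor *Ccr7*, and the surface molecules *Cd69*, *Cd44* and *Selplg*. Rows were found by symbol, and 6 of the 7 had a row in a table of 24303 genes; *S1pr5* was not analysed here. The transgenic receptor of P14 cells recognises GP33, a peptide of lymphocytic choriomeningitis virus. All came from spleens of uninfected mice, were activated on anti-CD3 and anti-CD28 for 2 days, and were then kept in medium with IL-2 and IL-15. Effector cells were collected on day 7, and their labels give no peptide schedule. The study took them from its stimulation model, and its flow cytometry names the day 7 cells "Effector 7d-stim". Acute-2d cells received no GP33 and rested until day 19. Acute-7d cells received GP33 until day 7 and then rested without it until day 19. T_Dysf cells, the dysfunctional condition, received GP33 until day 19 with TGF-β1 from day 7. Prolonged GP33 and TGF-β1 always came together in T_Dysf, so the effect of one cannot be told apart from that of the other. T_Dysf cells were collected under stimulation and both Acute conditions at rest, so stimulation at collection cannot be told apart from the dysfunctional state. The cells never left the dish, so the values are transcript levels in bulk cultures and no migration was measured.

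T cells recirculate by entering lymph nodes from blood and leaving through lymph. CCR7 binds CCL19 and CCL21 and guides cells into the node, and S1PR1, a receptor coupled to the inhibitory G protein, guides them out along a rise in S1P. CD69 binds S1PR1 in the membrane and takes it off the surface, so it holds cells in tissue, and it is also a classical early marker of activation. The transcription factor KLF2 switches on *S1pr1* in resting T cells, and resident memory cells of tissues are known for low *Klf2*, *S1pr1* and *Ccr7*. CD44 binds hyaluronan, and PSGL-1, the product of *Selplg*, binds P-selectin and, once decorated with the right sugars, E-selectin.

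Sequences upstream of start sites were at hand in RefSeq for 3 of the 7 genes, and are shown for the measured ones, *S1pr4* and *Cd44*, with that of *S1pr3*, another S1P receptor, which was the S1P receptor of the table that was higher in T_Dysf. Each is the 250 bases before the start site in build GRCm38.p6, 5′ to 3′ on the strand of the gene, with capitals for CACCC, the core bound by KLF factors, and for CAGACA, an element bound by SMAD factors, on either strand. *S1pr3* lies at chr13:51408368-51408617 on the plus strand, *S1pr4* at chr10:81500138-81500387 on the minus strand and *Cd44* at chr2:102901666-102901915 on the minus strand.
S1pr3: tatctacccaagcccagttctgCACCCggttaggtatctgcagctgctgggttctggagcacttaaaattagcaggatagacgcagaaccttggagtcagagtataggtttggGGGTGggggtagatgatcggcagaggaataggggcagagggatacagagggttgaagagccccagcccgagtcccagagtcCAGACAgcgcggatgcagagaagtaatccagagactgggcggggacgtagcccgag
S1pr4: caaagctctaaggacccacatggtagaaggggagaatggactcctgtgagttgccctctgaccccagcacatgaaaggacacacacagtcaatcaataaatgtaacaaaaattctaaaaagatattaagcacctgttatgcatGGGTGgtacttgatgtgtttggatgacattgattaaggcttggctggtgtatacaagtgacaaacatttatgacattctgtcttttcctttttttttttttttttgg
Cd44: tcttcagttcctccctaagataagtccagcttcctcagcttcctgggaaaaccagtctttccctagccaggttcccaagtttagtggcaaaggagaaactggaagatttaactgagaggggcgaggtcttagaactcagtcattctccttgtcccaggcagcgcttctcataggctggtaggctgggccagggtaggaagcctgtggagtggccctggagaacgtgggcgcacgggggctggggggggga

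The *S1pr3* stretch held CACCC at 2 places and CAGACA at 1 place, 56 bases before the start site. The *S1pr4* stretch held CACCC at 1 place, and the *Cd44* stretch held neither. Among 32851 stretches of the same length before mouse genes, 52.0% held CACCC and 17.1% held CAGACA, so these matches are common and only describe the letters of these windows. The AP-1 motif TGANTCA (6.75% of stretches) and the FOXO motif GTAAACA (3.17%) were in none of the 3.

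Each condition had 2 libraries. The study calls them biological replicates. Between 19382100 and 24856200 reads were estimated per library, and 3 reads, the floor below which a level is not read here, equalled 2.59 to 3.35 normalized counts. The 9 markers of CD8+ T cells summed to 148728 to 161666 normalized counts in T_Dysf and to 84342 to 97167 in the other 6 libraries. *Cd3e* and *Cd3g* were higher in T_Dysf than in Acute-7d, while the 3 markers of CD4+ T cells summed to 14.6 to 52.8 in every library. Markers of B, NK, myeloid and dendritic cells summed to at most 2018 per list and library. Of these, *Cd79b* was higher and *Ncr1* and *H2-Ab1* were lower in T_Dysf than in Acute-7d. *Tyrobp*, listed with *Ncr1* for NK cells, stood at 230 and 208 in T_Dysf and at 13.4 to 50.5 elsewhere, a difference that did not pass the test. The part of these markers in the results was not tested. Both Effector libraries and Acute-7d replicate 1 carry a RESUB prefix in their library names and held 53.5 to 115 normalized counts of *Xist* and 1334 to 2161 of the Y-linked *Ddx3y*. The other 5 libraries held 21871 to 30427 and at most 2.59. The 2 Acute-7d libraries therefore came from cells of different sex, and they differed by 1.01- to 1.17-fold for the 6 genes. Prefix and sex cannot be told apart from each other, and a term for them in the fit separates them from the Effector condition only through the single prefixed Acute-7d library.

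T_Dysf cells had the lowest levels of both main guides of recirculation. *S1pr1* was 44.1-fold lower in T_Dysf than in Acute-7d, and *Ccr7* was 33.8-fold lower. *Cd44* was 1.73-fold lower, *S1pr4* had a level 2.31-fold below that of Acute-7d that did not pass the test, and *Cd69* and *Selplg* had levels 1.5- and 1.48-fold above it that did not pass either. A gene was called when its fold change was at least 2 and its adjusted P, from limma over all genes, was under 0.05. By this rule 2 of the 6 genes were called lower in T_Dysf than in Acute-7d. Of all genes, 5.57% were called in this comparison, 3.03% as lower and 2.54% as higher. The median log2 fold change of the 6 was -1.0, and that of all genes was 0.00. In these bulk libraries, fewer cells with a transcript and less transcript per cell cannot be told apart.

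**Figure D1:**
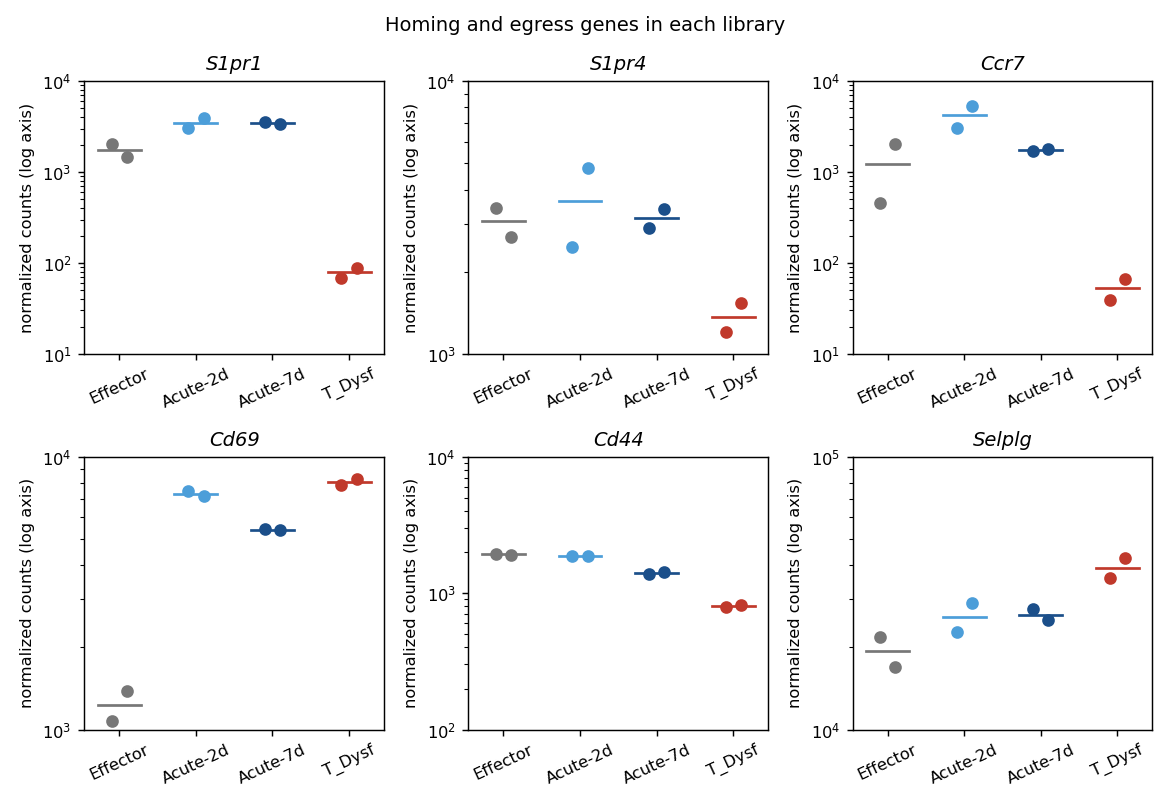
Normalized counts of the 6 homing and egress genes in each of the 8 libraries, on log axes that differ between panels; points are libraries and bars are means of 2. *S1pr1* lies between 1479.7 and 3918 outside T_Dysf and at 68.2 and 89.0 within it, whereas *Cd69* is lowest in Effector, at 1077 and 1385.

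*S1pr1* (ENSMUSG00000045092, chr3:115710433-115715072, minus strand of mm10) is the receptor that egress depends on. It stood at 3576 and 3391 normalized counts in Acute-7d, 3070.0 and 3918 in Acute-2d, 2035 and 1479.7 in Effector, and 68.2 and 89.0 in T_Dysf. The T_Dysf libraries were below all 6 others, the Effector libraries were next, and the Acute conditions overlapped. The log2 fold change of T_Dysf was -5.46 ± 0.22 (SE; adjusted P = 0.00133) against Acute-7d, -5.46 (adjusted P = 0.00108) against Acute-2d and -4.46 (adjusted P = 0.00190) against Effector. These calls held without any 1 library, and the difference from Acute-7d was -5.43 (adjusted P = 0.0257) among the 5 libraries with no prefix. Effector cells were 2.01-fold below Acute-7d (adjusted P = 0.0482), a call at the edge of the rule that was lost without either Acute-2d, Acute-7d or T_Dysf library or without Effector replicate 2 (adjusted P up to 0.187). Acute-7d and Acute-2d differed by 0.01 on the log2 scale, with a 95% interval from -0.58 to 0.59.

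*S1pr4* (chr10:81497747-81500132), a receptor largely limited to blood cells, stayed abundant. Its levels were 2904 and 3402 normalized counts in Acute-7d, 2455 and 4799.7 in Acute-2d, 3439.5 and 2686 in Effector, and 1202 and 1537 in T_Dysf. Both T_Dysf libraries lay below the other 6, but the Acute-2d pair differed by 1.96-fold. The log2 differences of T_Dysf were -1.21 ± 0.36 (SE, adjusted P = 0.115) from Acute-7d, -1.34 (adjusted P = 0.0847) from Acute-2d and -1.16 (adjusted P = 0.0982) from Effector, and none was called. With genes whose maximum was below 50 left out, as the study's methods name, the same differences had adjusted P of 0.0279, 0.0165 and 0.0226 and were called. This filter changes both the genes adjusted over and the fitted trend, and their parts were not tested.

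The make-up of the S1P receptor transcripts differed in T_Dysf. To compare genes, counts were divided by the kilobases of exon, taken as the union over annotated transcripts. Shares between genes depend on these lengths. The lengths come from the GENCODE annotation, whereas the reads were counted on RefSeq transcripts. The 4 receptors in the table then summed to 2502 ± 112 (SD, n = 2) normalized counts per kb in Acute-7d, 2704 ± 905 in Acute-2d, 1894 ± 354 in Effector and 827 ± 132 in T_Dysf. *S1pr1* made up 29.5% to 48.8% of this sum in the other 6 libraries and 3.05% to 3.17% in T_Dysf. *S1pr4* made up 49.8% to 68.5% and 68.7% to 70.0%. *S1pr2*, whose product couples to a different G protein and restrains migration, stood at 213 to 367 normalized counts over all 8 libraries, with a log2 difference between T_Dysf and Acute-7d of 0.08 (95% interval -0.68 to 0.84).

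*S1pr3* took the remaining share. This receptor, best known from endothelium and heart, stood at 766 and 929 normalized counts in T_Dysf, at 6.69 and 5.05 in Acute-7d, at 4.21 and 0 in Acute-2d, and at 5.48 and 3.01 in Effector. The 6 other libraries were within a few reads of the floor, and both T_Dysf libraries were far above them. Compared with Acute-7d, the fitted log2 difference was 6.95 ± 0.85 (SE; adjusted P = 0.0160), and it ran from 5.75 to 7.16 over all alternatives; so close to the floor, it depends on the constant added before the log and sets no bound. The call was lost without either Acute-7d or either T_Dysf library (adjusted P up to 0.0896), with a pseudocount of 0.1 (0.0863), with a term for the prefix (0.0829) and among the libraries with no prefix (0.132). Per kb of exon *S1pr3* was 22.6% to 23.4% of the S1P receptor sum in T_Dysf and at most 0.0619% elsewhere. On the opposite strand the annotation has *Gm32834*, a lincRNA whose exons share 45 bases with those of *S1pr3*. Whether counting used strand is not given in the sources used here, so reads on these bases cannot be told apart. The 8 stromal and endothelial markers in the table summed to 1135 to 1194 normalized counts in T_Dysf and to 1374 to 2089 elsewhere, nearly all of it *Pecam1*, and *Cdh5* and *Kdr* stayed at or below 32.6 in every library.

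**Figure D2:**
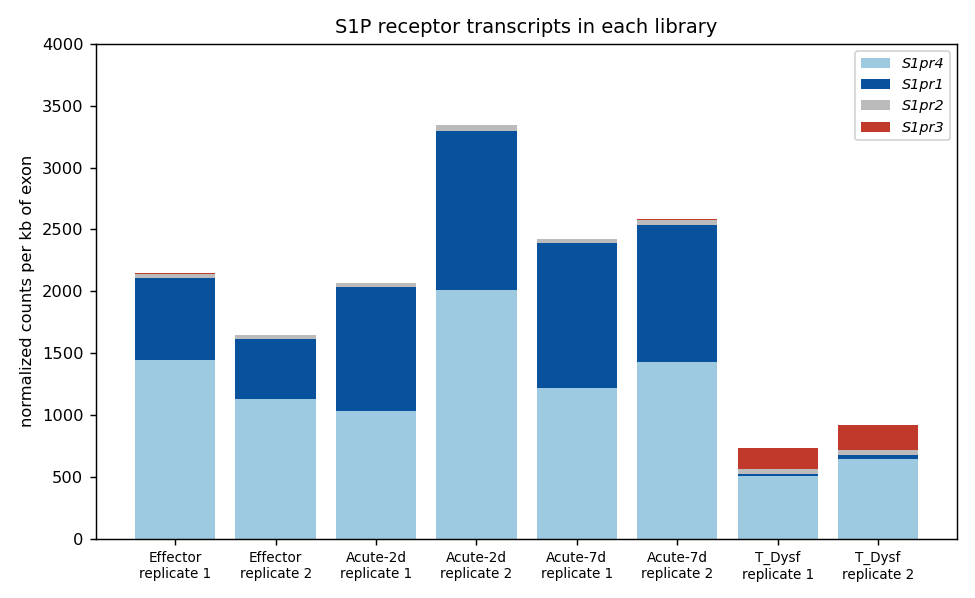
Transcript levels of 4 S1P receptors in each of the 8 libraries, as stacked bars of normalized counts per kb of exon. T_Dysf libraries have the shortest bars, a thin *S1pr1* band (3.05% to 3.17% of the sum) and the 2 bars with a visible *S1pr3* band (22.6% to 23.4%).

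*Ccr7* (chr11:99144196-99155077) varied widely between the Effector libraries. It stood at 1718 and 1790.3 normalized counts in Acute-7d, 3072 and 5304 in Acute-2d, 461 and 2006 in Effector, and 38.9 and 66.7 in T_Dysf. The Effector libraries differed by 4.36-fold, and replicate 2 lay above both Acute-7d libraries while replicate 1 lay below them. Both T_Dysf libraries were below every other library. The log2 fold changes were -5.08 ± 0.76 (SE; adjusted P = 0.0254) against Acute-7d, -6.28 (adjusted P = 0.0124) against Acute-2d and -4.21 (adjusted P = 0.0282) against Effector. Without 1 library the value against Acute-7d stayed between -5.46 and -4.70, but the call was kept only without an Effector library. It was lost without either Acute-2d, Acute-7d or T_Dysf library (adjusted P from 0.0565 to 0.132) and among the libraries with no prefix (-5.11, adjusted P = 0.0761). Against Acute-2d the call was lost without either Acute-2d library or T_Dysf replicate 1 (adjusted P from 0.0563 to 0.0778), and against Effector without either Acute-2d, Acute-7d or T_Dysf library (adjusted P up to 0.137) or with a term for the prefix (adjusted P = 0.259). The interval of the difference between Acute-7d and Acute-2d ran from -3.18 to 0.78 on the log2 scale, so 2 libraries a condition leave this difference undecided.

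*Cd69* (chr6:129267325-129275436) was high in all cells collected on day 19, rested or stimulated. Its levels were 7866 and 8298 normalized counts in T_Dysf, 7469 and 7178 in Acute-2d, 5412 and 5367 in Acute-7d, and 1077 and 1385 in Effector. The Acute-2d cells, last stimulated on day 2, were thus close to the T_Dysf cells stimulated until day 19, and the Effector cells were far below every day-19 library. T_Dysf differed from Acute-2d by 0.14 on the log2 scale (95% interval -0.18 to 0.47; adjusted P = 0.531) and from Acute-7d by 0.58 (0.26 to 0.91; adjusted P = 0.0573). Effector cells had 4.41-fold less *Cd69* than Acute-7d (log2 -2.14, adjusted P = 0.00561) and 5.99-fold less than Acute-2d (log2 -2.58, adjusted P = 0.00305), and T_Dysf had 6.61-fold more than Effector (log2 2.72 ± 0.13, adjusted P = 0.00159). Culture day goes with these 3 contrasts and cannot be told apart from the condition. The same holds for every contrast with Effector, of any gene, as only Effector cells were collected on day 7. With a term for the prefix, T_Dysf against Effector was 2.74 (adjusted P = 0.0328), Effector against Acute-7d was -2.15 (adjusted P = 0.0258) and Effector against Acute-2d was -2.59 (adjusted P = 0.0401). In fits of only the conditions compared, the Effector differences from Acute-7d and Acute-2d had adjusted P of 0.0785 and 0.0622.

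*Cd44* (chr2:102811141-102901665), which rises on antigen experience and binds hyaluronan, differed by at most 1.03-fold between replicates in every condition. It stood at 1951 and 1899 normalized counts in Effector, 1879.9 and 1869 in Acute-2d, 1382 and 1418 in Acute-7d, and 797 and 825 in T_Dysf. The order from Effector to T_Dysf held in every library. T_Dysf was 2.31-fold below Acute-2d (log2 -1.21, adjusted P = 0.000537) and 2.37-fold below Effector (log2 -1.25, adjusted P = 0.000579), and both calls held without any 1 library. Against Acute-7d the log2 difference was -0.79 ± 0.04 (SE), with an adjusted P of 0.00209 but a fold change of 1.73, under the fold of 2 that a call needed. Effector exceeded Acute-7d by 0.46 on the log2 scale (adjusted P = 0.0105), also under that fold, while Effector and Acute-2d differed by 0.04 (95% interval -0.06 to 0.14).

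*Selplg* (chr5:113818536-113832644) was the most abundant of the 6 genes per kb of exon in every condition. Its levels were 21859.7 and 16937 normalized counts in Effector, 22797 and 29124 in Acute-2d, 27583 and 25231 in Acute-7d, and 35989 and 42498 in T_Dysf. T_Dysf lay above all other libraries and Effector below them. T_Dysf was 2.03-fold above Effector (log2 1.02 ± 0.20, SE; adjusted P = 0.0356), which was called by a narrow margin and lost without either Acute-2d, Acute-7d or T_Dysf library or without Effector replicate 2 (adjusted P up to 0.126). The call was also lost with a term for the prefix (adjusted P = 0.257) and in a fit of only T_Dysf and Effector (adjusted P = 0.150). With quantile normalization the log2 value was 0.99, under the fold of 2. The differences of T_Dysf from Acute-7d (0.57, adjusted P = 0.167) and Acute-2d (0.60, adjusted P = 0.140) did not pass.

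**Figure D3:**
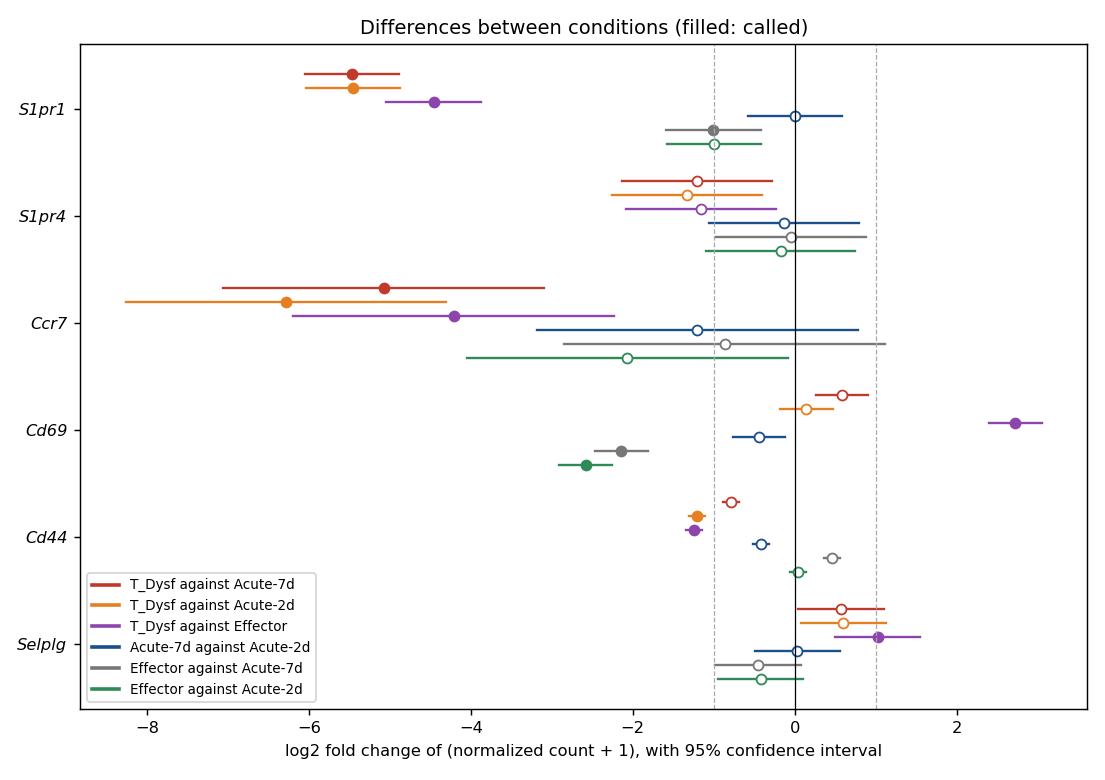
Log2 fold changes of the 6 genes in 6 comparisons, as points with 95% confidence intervals from limma; filled points were called and dashed lines mark a fold of 2. The 3 comparisons of T_Dysf lie far left of 0 for *S1pr1* (-5.46 to -4.46) and *Ccr7* (-6.28 to -4.21), with intervals several times wider for *Ccr7*.

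T_Dysf against Acute-2d called 3 of the 6 genes, all lower (*S1pr1*, *Ccr7* and *Cd44*), where 7.35% of all genes were called, 4.21% as lower and 3.14% as higher. T_Dysf against Effector called 5, with those 3 lower and *Cd69* and *Selplg* higher, where 9.22% of all genes were called, 4.75% as lower and 4.47% as higher. Effector against Acute-7d called 2, *S1pr1* and *Cd69*, both lower, where 8.06% of all genes were called, 3.88% as lower and 4.18% as higher. Effector against Acute-2d called 1, *Cd69*, as lower, where 8.78% of all genes were called, 4.48% as lower and 4.31% as higher. Between Acute-7d and Acute-2d limma called 0 of the 6, where 0.169% of all genes were called, 0.0905% as lower and 0.0782% as higher; 2 of the 6, *Cd69* and *Cd44*, had an unadjusted P under 0.05, as had 7.31% of all genes. The 3 comparisons of T_Dysf share the T_Dysf libraries, so they are not independent of each other.

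In levels per kb of exon, the order of the 6 genes in Acute-7d was *Selplg* (6181 ± 389, SD, n = 2), *S1pr4* (1321 ± 148), *S1pr1* (1144 ± 42.9), *Ccr7* (887 ± 25.8), *Cd69* (828 ± 4.92) and *Cd44* (207 ± 3.69). In T_Dysf the order was *Selplg* (9186 ± 1077), *Cd69* (1242 ± 46.9), *S1pr4* (574 ± 99.4), *Cd44* (120 ± 2.85), *Ccr7* (26.7 ± 9.96) and *S1pr1* (25.8 ± 4.82). The last pair did not differ beyond its spread. *Cd69* thus exceeded *S1pr1* per kb in T_Dysf and was below it in Acute-7d. The order in Acute-7d rests on the exon lengths, unions over annotated transcripts (6509 bases for *Cd69*, 3046 for *S1pr1*). Before division, *Cd69* was above *S1pr1* in both Acute-7d libraries (5412 and 5367 against 3576 and 3391 normalized counts).

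Transcription factors that act on homing and egress genes were read next, from a list of 13. Of these, 5 were called lower and 0 higher in T_Dysf against Acute-7d, where 3.03% of all genes were lower and 2.54% higher. Their median log2 fold change was -0.73. *Klf2*, the activator of *S1pr1*, stood at 1868 and 1582 normalized counts in Acute-7d, 1922 and 2384 in Acute-2d, 1231 and 1105 in Effector, and 104 and 133 in T_Dysf. T_Dysf was below every other library, and its log2 fold change was -3.86 ± 0.18 (SE; adjusted P = 0.00185) against Acute-7d. The other 4 were *Tcf7* (log2 -5.97), its relative *Lef1* (-3.94), *Bach2* (-4.40) and *Klf3* (-3.97). *Tcf7* is a factor of memory and self-renewing T cells, *Bach2* restrains effector differentiation, and *Klf3* is a repressor from the same family as *Klf2*. The *Tcf7* call was lost without either Acute-7d library or without T_Dysf replicate 1 (adjusted P up to 0.0703). *Zeb2* and *Tbx21*, factors of effector cells that act on S1P receptor genes, had log2 differences of 1.12 (adjusted P = 0.116) and -0.01 (adjusted P = 1.0).

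Across the 8 libraries and 12028 genes with a mean of at least 50, the genes most like *S1pr1* by Pearson's r of log2 levels were *Syt11* (0.998), *Klf2* (0.997) and *Cd2* (0.993). Those most like *Ccr7* were *Plxna1* (0.993), *Nsg2* (0.991) and *Cxcr4* (0.991). For *S1pr4* they were *Trmt112*, *Mri1* and *Zfp658* (0.965 to 0.980), for *Cd69* *Gm49338*, *Tulp3* and *2510009E07Rik* (0.987 to 0.991), for *Cd44* *Avpi1*, *Pld4* and *Pgk1-rs7* (0.984 to 0.985) and for *Selplg* *Pld3*, *Tnks1bp1* and *Bloc1s3* (0.985 to 0.988). The libraries fall into 4 conditions of 2, so a gene high or low in T_Dysf alone scores high on this measure. *S1pr1* and *Ccr7* had an r of 0.943 with each other, *S1pr1* and *Cd69* -0.290, and *Cd44* and *Selplg* -0.850.

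Of 10 genes that make, break down or carry S1P, limma called 0 in T_Dysf against Acute-7d, and 3 had an unadjusted P under 0.05, as had 26.1% of all genes. The kinase *Sphk2* stood at 827 to 1438 normalized counts over all libraries and its relative *Sphk1* was at or below 2.67, at or under the floor of each library. The lyase *Sgpl1*, which destroys S1P, was at 822 and 879.9 in T_Dysf and 1216 and 1194 in Acute-7d, a log2 difference of -0.50 (adjusted P = 0.0247) that was under the fold of 2. Of 19 genes that couple these receptors to their signals or desensitize them, 1 was higher and 2 were lower. The shares over all genes were 2.54% and 3.03%. *Rgs16*, which shortens G protein signals, was higher (2.37, adjusted P = 0.0269). *Grk5* (-3.05), a kinase of active receptors, and *Arrb1* (-2.94), which binds the receptors it marks, were lower. The *Rgs16*, *Grk5* and *Arrb1* calls were lost in 6, 2 and 3 of the 8 fits without 1 library (adjusted P up to 0.134, 0.0562 and 0.0725). Effector cells also had more *Rgs16* (1.86) and less *Arrb1* (-1.72) than Acute-7d, and both differences were called.

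Among 15 other homing receptors and ligands in the table, of 19 listed, 4 were lower and 0 higher in T_Dysf against Acute-7d. Over all genes, 3.03% were lower and 2.54% higher. *Cxcr4*, the receptor for CXCL12, stood at 438 and 377 normalized counts in Acute-7d and 44.0 and 51.6 in T_Dysf (log2 -3.07, adjusted P = 0.0114). The integrin chains *Itgb1* (-2.06) and *Itgal* (-1.27), and *Gpr183* (-1.45), a receptor for oxysterols that positions lymphocytes, were the other 3; the *Gpr183* call was lost in all 8 fits without 1 library (adjusted P up to 0.174), and those of *Cxcr4* and *Itgal* in 3 each (adjusted P up to 0.0757 and 0.0865). The median log2 fold change of the 15 was -0.46.

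For the sugars that let PSGL-1 bind selectins, 16 of 18 listed genes were in the table, with 1 higher, 2 lower and a median of -0.05. The shares over all genes were 2.54% higher and 3.03% lower. *Gcnt1*, which starts the branched O-glycan on which selectin ligands are built, rose from 216 and 237 normalized counts in Acute-7d to 818 and 866 in T_Dysf (log2 1.89, adjusted P = 0.0208). *Tpst1*, which puts sulfate on tyrosines of PSGL-1 (-2.76, adjusted P = 0.0278), and *Chst2*, which puts sulfate on sugars (-3.24, adjusted P = 0.0164), were lower. The *Gcnt1*, *Tpst1* and *Chst2* calls were lost in 6, 5 and 2 of the 8 fits without 1 library (adjusted P up to 0.110, 0.117 and 0.0869). For CD44, 19 of 21 listed genes of hyaluronan and of CD44's partners were in the table, where 5.57% of all genes were called. *Mmp9*, a protease that CD44 holds at the surface, was the 1 called, lower in T_Dysf, with a mean of 32.5 over the libraries.

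Lists of genes known to be high or low in tissue-resident memory cells were counted with the 6 genes left out. *Klf2*, *Klf3*, *Tcf7*, *Lef1* and *Eomes* stand in both the transcription factor list and the list of low genes. The list of high genes shares *Rgs1* and *Rgs2* with the list of receptor coupling, and *Nr4a1* and *Icos* with the activation antigens named below. *Nr4a1* is therefore counted as called in both of these lists. Of 23 known to be high, 9 were called higher and 0 lower in T_Dysf against Acute-7d, with a median log2 fold change of 1.31. Over all genes, 2.54% were called higher and 3.03% lower. Whether called or not, 21 of the 23 lay above 0 and 2 below it, *P2rx7* (-2.09) and *Ctla4* (-0.70). *Itgae*, the chain of CD103 that binds E-cadherin and is a known target of TGF-β, stood at 40456 and 37825 normalized counts in T_Dysf and between 50.2 and 101 elsewhere (log2 9.05 ± 0.22, SE; adjusted P = 0.000385). *Adgrg1* (7.41), an adhesion receptor of cytotoxic cells, *Hpgds* (4.29), a prostaglandin synthase, *Litaf* (3.35) and the receptor-induced factors *Nr4a2* (3.14) and *Nr4a1* (2.58) were also higher. The *Nr4a1*, *Nr4a2* and *Hpgds* calls were lost in 6, 4 and 1 of the 8 fits without 1 library. Of 19 known to be low, 14 were called lower and 0 higher, with a median of -2.41. Whether called or not, 17 of the 19 lay below 0 and 2 above it. Besides *Tcf7*, *Klf3* and *Lef1*, the called genes included *Slamf6* (-4.53), *Cmah* (-4.32) and *Usp33* (-4.31). These lists were drawn up with earlier results of these data known, and some of their genes are targets of TGF-β or of receptor stimulation, both given to T_Dysf, whose parts in these counts cannot be told apart.

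Of 14 activation antigens listed beside *Cd69* and *Cd44*, 3 were higher and 1 was lower in T_Dysf against Acute-7d. The shares over all genes were 2.54% and 3.03%. *Cd38*, an enzyme of the cell surface, was at 153 and 281 normalized counts in Acute-7d and at 1566 and 1567 in T_Dysf (log2 2.91, adjusted P = 0.0210), and *Nr4a1* and the costimulatory receptor *Tnfrsf9* (1.34) were the others that were higher. *Myc*, a driver of growth, was lower (-1.69, adjusted P = 0.0176). The calls of *Cd38*, *Tnfrsf9* and *Myc* were lost in 5, 5 and 2 of the 8 fits without 1 library. Effector cells also differed from Acute-7d in *Tnfrsf9* (1.71), *Nr4a1* (2.25) and *Myc* (-1.30), each called and in the same direction. *Tnfrsf9* stood at 3207 and 4216 normalized counts in Effector, against 2691 and 3009 in T_Dysf. *Cd38* was at 378 and 204 in Effector.

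**Figure D4:**
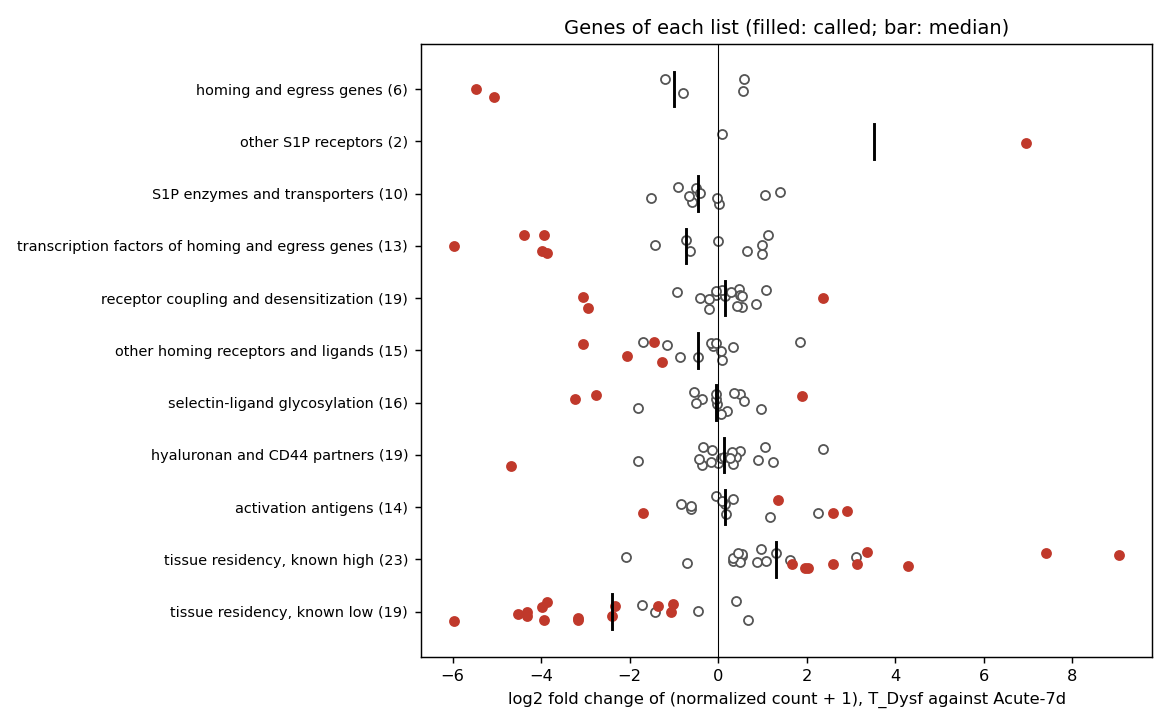
Log2 fold changes of T_Dysf against Acute-7d for the 6 homing and egress genes and 10 lists of related genes; each point is a gene, filled where called, and bars are medians, with the number of genes in the table in parentheses. Filled points lie right of 0 for residency genes known to be high (9 of 23) and left of 0 for those known to be low (14 of 19). Over all genes, 2.54% were called higher and 3.03% lower.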

How the data were processed

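RNA-Seq of polyA RNA from sorted P14 cells was measured in 8 libraries. Per the study's methods, the authors used STAR for alignment (mm10), Partek Flow for quantification to RefSeq transcripts, and median-ratio size factors for normalization. The deposited values are a signal: estimated read counts divided by a size factor. Between 52.3% and 75.7% of values under 1000 reads were whole multiples of the worth of 1 read (tolerance 0.02 reads), so count models were not fitted.

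Differences were tested with limma (version 3.58.1, R 4.3.3) after log2(normalized count + 1). A single fit, moderated by eBayes with a mean-variance trend, covered 24303 genes, 8 libraries and 4 group means (4 residual degrees of freedom), and 6 two-sided comparisons were adjusted by Benjamini-Hochberg over all genes with no filter. Fold changes understate differences of faint genes. An exact permutation test of 2 against 2 libraries cannot go below 0.333. The fit was tested on simulated data. Exons came from GENCODE vM21 and upstream sequences from RefSeq.

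The genes and lists were chosen with earlier results of these data known. Named beside them were, per list, up to 6 called in T_Dysf against Acute-7d with a mean of at least 50; *Klf2*, *Tcf7*, *Tbx21*, *Zeb2*, *Itgae*, *S1pr2* and *S1pr3* whatever their values; and the 3 genes most like each. *Sphk1*, *Sphk2*, *Sgpl1* and *Mmp9* were named after their values were seen. Alternatives were pseudocounts of 0.1 and 10, filters at 50, other scalings and thresholds, a fit of 2 groups, a replicate block, a RESUB term, no trend, and each library left out; a fit of the libraries with no prefix was added after seeing the data.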

Additional observations from a re-analysis of the deposited data

How the results depend on the processing

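The number of the 6 genes called in T_Dysf against Acute-7d (2) was 1 with a RESUB term or with only the libraries with no prefix (chosen after seeing the data), 3 with a mean or maximum of at least 50, adjusted p alone or unadjusted p, and 1 to 2 with 1 library left out. Against Acute-2d (3) it was 4 with a mean or maximum of at least 50 or unadjusted p, and 2 to 3 with 1 library left out. Against Effector (5) it was 3 with a fit of only the 2 groups or a RESUB term, 4 with quantile normalization or the replicate block, 6 with a mean or maximum of at least 50 or unadjusted p, and 3 to 5 with 1 library left out. Effector against Acute-7d (2) gave 1 with a pseudocount of 0.1, equal 75th percentiles, equal totals, the replicate block, a RESUB term or no trend, 0 with only the 2 groups, 3 with adjusted p alone, and 1 to 2 with 1 library left out. Effector against Acute-2d (1) gave 2 with a mean or maximum of at least 50, quantile normalization, adjusted p alone or unadjusted p, 0 with only the 2 groups, and 1 to 2 with 1 library left out. The cause was not tested.

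Differences that changed sign had not passed the test. For T_Dysf against Acute-7d, *S1pr2* was -0.13 with a RESUB term or only unprefixed libraries and -0.13 to 0.29 with 1 library left out, and *Tbx21* was -0.24 to 0.22. *S1pr2* was -0.30 to 0.48 against Acute-2d with 1 library left out and -0.23 against Effector with a RESUB term. For Acute-7d against Acute-2d, *S1pr1* was -0.033 and *Selplg* -0.030 with a RESUB term or only unprefixed libraries; with 1 library left out *S1pr1* was -0.17 to 0.18, *Selplg* -0.14 to 0.21, *S1pr4* -0.61 to 0.36 and *S1pr2* -0.38 to 0.40.

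Effector against Acute-7d with a RESUB term was 0.066 for *S1pr4* and 0.11 for *S1pr2*; against Acute-2d it was 0.053 and 0.33, and *Cd44* was -0.050 with equal 75th percentiles and -0.056 by quantiles. With 1 library left out, the values against Acute-7d were -0.23 to 0.13 for *S1pr4*, -1.93 to 0.19 for *Ccr7* and -0.31 to 0.11 for *S1pr2*, and those against Acute-2d were -0.66 to 0.31 for *S1pr4*, -0.48 to 0.30 for *S1pr2* and -0.032 to 2.35 for *S1pr3*.

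Replicate numbers were not taken as pairs: correlations of replicate differences ran from -0.20 to 0.20. With the replicate block, *S1pr1* in Effector against Acute-7d had an adjusted p of 0.0876 and *Selplg* in T_Dysf against Effector 0.0728. Counts over all genes ran from 541 to 3184 for T_Dysf against Acute-7d (1353), 1300 to 3517 against Acute-2d (1787), 386 to 4060 against Effector (2241), 1 to 910 for Acute-7d against Acute-2d (41), 155 to 3613 for Effector against Acute-7d (1958) and 235 to 3821 against Acute-2d (2135). With 1 library left out the lowest counts were 422, 656, 585, 61, 378 and 553, and the highest 1534, 1867, 2484, 376, 2156 and 2363. With 2 libraries a group, faint genes and differences under 2-fold are the least certain.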
